A study of Homo sapiens with 6 samples.

Results

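The genes described here encode the proteins of the mitochondrial ribosome. They were chosen by name, as every row of the deposited gene table whose symbol starts with MRPL or MRPS, is followed by a number and carries at most one closing letter A, B or C. The rule returned 78 of 60748 rows, 49 with an MRPL and 29 with an MRPS symbol. The rule uses no measured value. RNA sequencing compared 3 libraries of LX-2FAP cells with 3 libraries of LX-2Vector cells, and all were cultured for 24 hours. LX-2 is an immortalized human hepatic stellate cell line, a model of the liver pericyte that lays down matrix after activation. LX-2FAP cells overexpressed fibroblast activation protein α (FAPα), a serine protease of the cell surface encoded by FAP, and LX-2Vector cells carried the vector without it. Per the study's methods both lines were made by lentiviral transduction with a ubiquitin promoter, and stable clones were selected with puromycin. The vector also encoded a green fluorescent protein. Nothing in the labels says that the 3 libraries of a line came from separate transductions, clones or cultures. Library totals ran from 17355700 to 26352060 reads counted to genes.

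The mitochondrial ribosome (mitoribosome) translates the few mRNAs that are encoded by mitochondrial DNA, all of which specify subunits of the respiratory chain and ATP synthase. Its rRNAs are made inside the organelle, whereas all of its proteins are encoded in the nucleus, translated in the cytosol and imported. The large subunit forms peptide bonds and holds the exit tunnel, and the small subunit binds the mRNA and decodes it. Many of its proteins have bacterial homologs, and others arose in mitochondria. Activation of hepatic stellate cells to myofibroblasts is known to come with a change in energy metabolism, in which respiration takes part.

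The symbols covered 51 proteins of the large subunit, since MRPS18A and MRPS30 belong to it despite their names, and 26 of the small subunit. The remaining symbol was MRPS36, a protein now assigned to the oxoglutarate dehydrogenase complex. The genes lay on 21 chromosomes, with at most 8 on any one.

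The nearest shared feature in sequence was at the promoters. RefSeq promoters (GRCh38.p14, 250 bases before to 50 bases after the transcription start) were matched by symbol for 69 of the 78 genes, all but MRPL2, MRPL10, MRPL13, MRPL15, MRPL21, MRPL23, MRPL35, MRPS28 and MRPS36. Of the 69, 29 (42.03%) held CCGGAAG, a core that ETS factors such as GABP bind, on either strand, against 12.84% of 22199 protein-coding promoters and 10.26% of all 35116 promoters. AAGATGGC, a core of the site of YY1, was in 20 (28.99%), against 3.53% of protein-coding and 2.89% of all promoters. At least 1 of these motifs was in 41 promoters (59.42%), against 15.59% of protein-coding and 12.59% of all promoters. The 2 motifs can share the letters AAG, and 0 of the 69 promoters held them overlapping in this way. Most matches lay close to the start: 27 of 39 ETS matches (69.23%) and 16 of 21 YY1 matches (76.19%) began within 50 bases of it. The sites below are examples of that shared feature in genes named in the results. Each is printed 5′ to 3′ on the strand of the gene with 10 bases on either side, and capitals mark the motif, or its reverse complement where stated.
MRPL3, ETS, 32 bases before the start, chr3:131502987-131503013, minus strand: gtaaaacgcaCCGGAAGtgggtccggc
MRPS10, ETS, 22 bases before the start, chr6:42217867-42217893, minus strand: cgctgtaaccCCGGAAGcaatcctgag
MRPS23, ETS reverse complement, 14 bases before the start, chr17:57850042-57850068, minus strand: ggagcagccgCTTCCGGttccggtagc
MRPL50, YY1, 23 bases after the start, chr9:101398578-101398605, minus strand: gatctcatcgAAGATGGCggcgcgatct
MRPS10, YY1, 9 bases after the start, chr6:42217835-42217862, minus strand: cgggaccggcAAGATGGCggcgcggaca
MRPL51, YY1, 21 bases after the start, chr12:6493224-6493251, minus strand: ggtaaggcccAAGATGGCtgtcttcgcc
MRPL46, YY1, 8 bases after the start, chr15:88467363-88467390, minus strand: gggagaacgaAAGATGGCggcgcccgta
MRPL32, YY1 reverse complement, 222 bases before the start, chr7:42932144-42932171, plus strand: cccgcgctccGCCATCTTtacccgaaga

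In MRPL50, MRPS10, MRPL46 and MRPL51 the YY1 letters lay downstream of the start, whereas MRPL32 held them far upstream and on the other strand. Both motifs were present in 8 of the 69 promoters, those of MRPS10, MRPL51 and MRPL38 among them. Among the named genes, the sites of MRPL38, MRPS34, MRPS24, MRPL53 and MRPS18C and the ETS sites of MRPL51 are not printed. Other motifs searched were found at shares near or below those of protein-coding promoters. The palindromic motif of NRF1 was in 1 promoter (1.45% against 1.5%), CACGTG, the E-box of MYC, in 6 (8.70% against 8.34%), CCAAT in 20 (28.99% against 34.69%) and TATAAA in 2 (2.90% against 9.47%).

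Nearly all of the genes were expressed, at levels that differed widely between them. The level of a gene is given as FPKM, its count scaled by gene length and library total, as the authors deposited it. The median over the 78 genes was 13.2 FPKM, 51 genes were over 10 FPKM and 3 were under 1. Large subunit genes had a median of 13.8 FPKM and small subunit genes of 10.8 FPKM. MRPL51, a mitochondrion-specific protein of the large subunit, had the highest FPKM, with 62.1, 68.0 and 63.7 in LX-2Vector replicates 1 to 3 and 65.3, 70.3 and 71.5 in LX-2FAP. Of its exon bases 31.3% are shared with NCAPD2, a condensin gene on the opposite strand. MRPL18, a protein of the central protuberance, and MRPS35 followed, each with a mean of 52.5 FPKM over the 6 libraries. MRPS10 (36.0 FPKM) and MRPS34 (35.8 FPKM) led the small subunit after MRPS35. Ordered by mean FPKM, the range over libraries overlapped that of the next gene in 71 of 77 neighbouring pairs, so the order was resolved in only 6 places. One of these was the step from MRPL51 to MRPL18. The order also rests on the gene length behind FPKM. MRPL42 had a mean of 2083 counts against 1975.5 for MRPL51, but 5.97 FPKM at a length of 16370 bases. The length implied by the deposited values equaled that of GENCODE release 29 for 20 of the 78 genes.

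**Figure D1:**
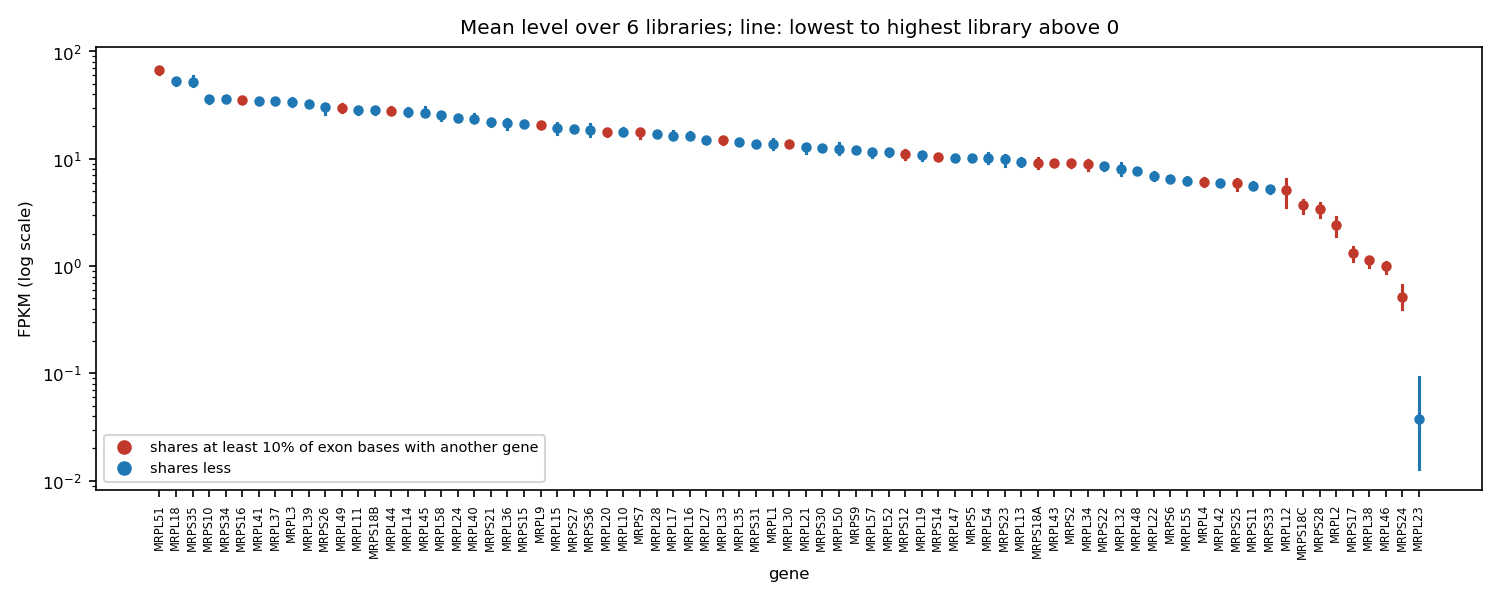
Mean FPKM (log scale) of the genes in order of level, with a line from the lowest to the highest of the 6 libraries. MRPL53, at 0 in every library, is not drawn; genes in red share at least 10% of their exon bases with another gene, and they take most of the lowest places.

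At the low end, MRPL53 had no read in any library. Of its exon bases 45.2% are shared with CCDC142. MRPL23, a homolog of a protein at the polypeptide exit site, had 1, 0 and 1 counts in LX-2Vector and 2, 5 and 5 in LX-2FAP, a mean of 0.038 FPKM. It shares 2.86% of its exon bases with another gene, and the reason for its low counts was not tested. MRPS24 (0.514 FPKM), MRPL46 (1.00 FPKM) and MRPL38 (1.13 FPKM) came next, and each shares exon bases with an overlapping gene, 23.2%, 11.3% and 41.1% respectively. Counting by gene can drop reads from shared bases, and the use of strand was not stated, so the levels of the 26 genes that share at least 10% of their exon bases are uncertain. Pseudogenes took few reads: 79 rows named as pseudogenes of these genes held together 0.365% as many counts as the genes themselves. MRPL45P2 led them with a mean of 126 counts, and 11.3% of the 75-base stretches of MRPL45 also occur in it.

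The comparison of LX-2FAP with LX-2Vector asks which transcripts differed between the line that overexpressed FAPα and the vector line. Effects of FAPα and of other differences between the selected lines cannot be told apart in this design. FAP itself had 49, 42 and 55 counts in LX-2Vector and 14864, 15160 and 14805 in LX-2FAP, a log2 fold change of 8.33 ± 0.13 (SE, n = 3 per group; edgeR adjusted p = 4.47e-16), as the labels say. Stellate markers gave a summed level of 473.6 to 492.3 FPKM in LX-2Vector and 490.8 to 504.9 FPKM in LX-2FAP, led by VIM, and 1 of 12 was called higher (VIM) and 3 lower (COL1A1, COL3A1 and PDGFRB). DES had at most 1 count in any library and LRAT none. The 4 hepatocyte markers were too low to test in every library, and leukocyte and epithelial markers summed to at most 2.85 and 1.10 FPKM. Endothelial markers summed to 0.843 to 1.04 FPKM in LX-2Vector and 0.645 to 0.827 FPKM in LX-2FAP, with VWF called lower, and the part of this in the results on the mitoribosome was not tested. All libraries came from the LX-2 cell line. In its bulk RNA, fewer cells that express a marker and less RNA per cell cannot be told apart.

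Genes of the mitoribosome were slightly higher in LX-2FAP as a group, and 6 of the 76 that could be tested passed the test one by one. These were MRPL3, MRPL13, MRPL15, MRPL32 and MRPL50 of the large subunit and MRPS35 of the small subunit, and each rose by 0.20 to 0.28 on the log2 scale. They were 7.89% of the 76, against 2.57% of all 18275 tested genes called higher and 4.02% of the 11556 with a mean of at least 100 counts (5.29% of all were called in either direction). DESeq2's Wald test called 8 higher, against 3.36% of all tested genes. No gene of the group was called lower by edgeR (2.73% of all tested genes) or DESeq2's Wald test (407 of all tested genes). Over the 18275 tested genes limma made only 2 calls, so the absence of its calls here and below says little. At an unadjusted p under 0.05, 1 gene of the group was lower by edgeR (11.6% of all). At that unadjusted threshold 22 were higher, against 10.5% of all tested genes. Of the 11556 with a mean of at least 100 counts, 1808 were higher and 1532 lower at that threshold. Differences in the rest were small but mostly of 1 sign. Of the 76, 66 (86.8%) had a log2 fold change above 0, against 47% of all tested genes and 53.1% of those with at least 100 counts, and the median was 0.10 against -0.01 over all tested genes. Scaled by library size alone, 60 were above 0, against 39.5% of all tested genes. A total of 28 genes had every LX-2FAP value above every LX-2Vector value (13% of all tested genes), and 2, MRPL2 and MRPL38, the opposite (13.4%). Of the 11556 with a mean of at least 100 counts, 2113 lay above without overlap and 1619 below. The genes were read in the same 6 libraries and are not independent of each other.

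**Figure D2:**
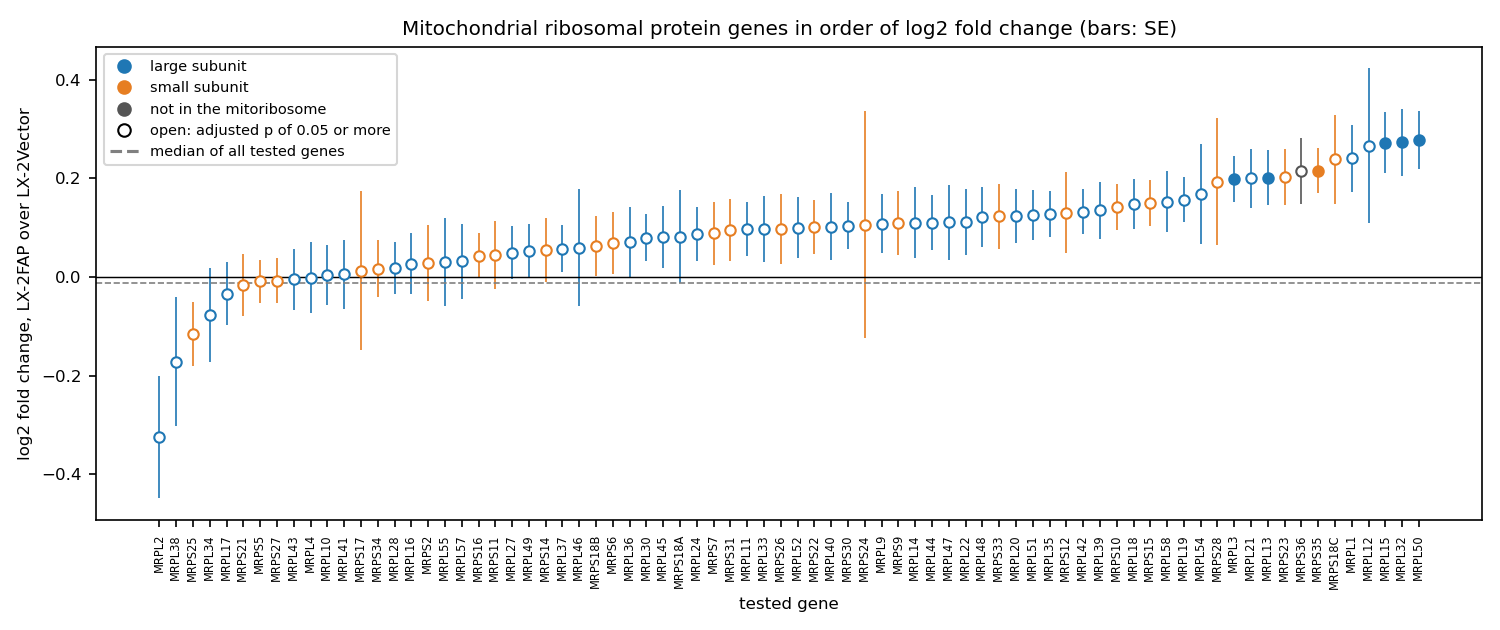
Log2 fold change (LX-2FAP over LX-2Vector) of the 76 tested genes in order of size, with bars for the SE; filled points passed an adjusted p of 0.05. The values run from -0.32 for MRPL2 to 0.28 for MRPL50, with 66 above 0, and all 6 filled points lie at the upper end.

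The changes were small. Beside its P value the study used a fold change over 1.2 as a cutoff. With an adjusted p, 3 genes of the mitoribosome passed it, all higher (MRPL15, MRPL32 and MRPL50), against 0.465% of all tested genes higher and 2.13% lower. With an unadjusted p the count was the same 3 higher and 1 lower (MRPL2), against 1.45% and 6.44% of all tested genes.

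MRPL50, a mitochondrion-specific protein of the large subunit (ENSG00000136897, GRCh38 chr9:101387633-101398614, minus strand), had the largest called change. Its normalized CPM, counts scaled by effective library total, were 37.4, 37.9 and 36.7 in LX-2Vector replicates 1 to 3 and 42.1, 47.7 and 46.2 in LX-2FAP. All LX-2FAP values lay above the controls, and LX-2FAP replicate 1 was the closest to them. The log2 fold change was 0.28 ± 0.06 (SE, n = 3 per group; edgeR adjusted p = 0.0169).

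MRPL32, homologous to a bacterial protein of the large subunit, is cut by the m-AAA protease after import and only then joins the ribosome. Its CPM were 24.98, 25.2 and 23.4 in LX-2Vector and 27.5, 30.7 and 30.9 in LX-2FAP. Here too the lowest LX-2FAP value came from replicate 1 and stood above the highest control. The log2 fold change was 0.27 ± 0.07 (edgeR adjusted p = 0.0315).

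MRPL15 is the mitochondrial form of a protein conserved from bacteria that sits within the large subunit. It had 30.0, 33.2 and 29.8 CPM in LX-2Vector and 36.4, 38.9 and 36.8 CPM in LX-2FAP. The groups did not overlap, and the controls were led by replicate 2. Its log2 fold change was 0.27 ± 0.06 (edgeR adjusted p = 0.0220).

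MRPS35, a mitochondrion-specific protein of the small subunit (ENSG00000061794, GRCh38 chr12:27710773-27756295, plus strand), was the only called gene of that subunit. It had 93.8, 96.4 and 92.0 CPM in LX-2Vector and 106.9, 115.1 and 105.8 CPM in LX-2FAP. The LX-2FAP values were all above the controls, with replicate 2 the highest. The log2 fold change was 0.22 ± 0.05 (edgeR adjusted p = 0.0176).

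MRPL3 and MRPL13 have bacterial homologs in the core of the large subunit, and the ETS site of MRPL3 is the first one printed above. MRPL3 had 87.8, 86.9 and 83.0 CPM in LX-2Vector and 95.1, 102.5 and 98.5 CPM in LX-2FAP, a log2 difference of 0.20 ± 0.05 (edgeR adjusted p = 0.0246). MRPL13 had 36.7, 36.9 and 35.5 CPM in LX-2Vector and 40.1, 41.6 and 43.7 CPM in LX-2FAP, a log2 difference of 0.20 ± 0.06 (edgeR adjusted p = 0.0492). Neither gene had overlapping groups, and MRPL13 passed the threshold by the smallest margin of the 6.

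**Figure D3:**
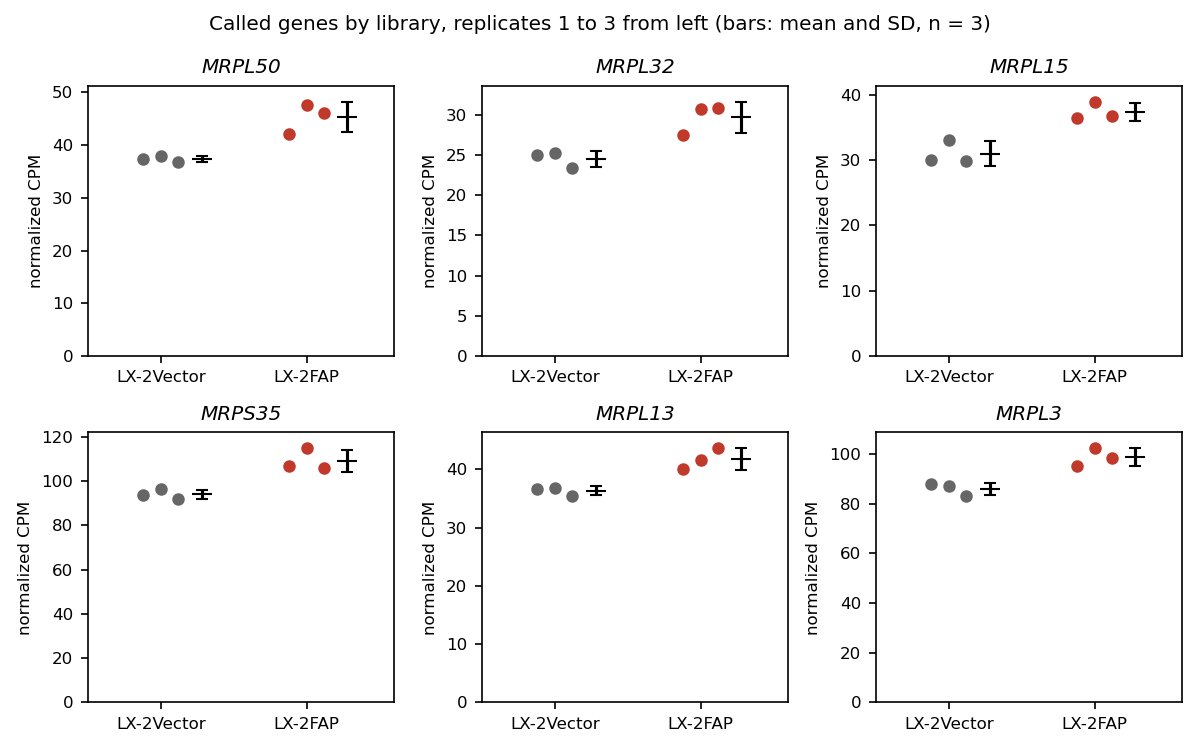
Normalized CPM of the 6 called genes in each library (points, replicates 1 to 3 from left), with mean and SD (n = 3 per group); axes start at 0. In each panel the 3 LX-2FAP points lie above the 3 LX-2Vector points, by a distance that is small against the level itself.

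Other genes had differences of like size without passing the test. MRPS23, of the small subunit, had 60.5, 63.4 and 54.2 CPM in LX-2Vector and 66.0, 70.2 and 68.7 CPM in LX-2FAP, a log2 difference of 0.20 ± 0.06 (edgeR adjusted p = 0.0511). MRPL1, which forms a mobile stalk by the tRNA exit, had 20.4, 21.9 and 19.8 CPM against 25.03, 23.3 and 24.8 CPM (0.24 ± 0.07, edgeR adjusted p = 0.0515). MRPL19 had 87.2, 93.4 and 94.6 CPM against 101.3, 101.3 and 103.8 CPM (0.16 ± 0.05, edgeR adjusted p = 0.0555). These 3 were nearest to the threshold from outside, and in none of them did the groups overlap. MRPL12, the stalk protein that in bacteria recruits translation factors, had 5.37, 5.19 and 3.53 CPM against 5.13, 5.28 and 6.59 CPM, so that its log2 fold change of 0.27 came with an SE of 0.16 and overlapping groups (edgeR adjusted p = 0.344). Of its exon bases 68.2% are shared with AC139530.2. MRPS18C (0.24, edgeR adjusted p = 0.126) shares 40.2% of its exon bases with ABRAXAS1, and its groups overlapped. MRPS36, the oxoglutarate dehydrogenase protein, had 27.6, 27.2 and 25.2 CPM against 29.5, 30.2 and 33.2 CPM (0.22 ± 0.07, edgeR adjusted p = 0.0691).

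At the other end stood MRPL2, whose bacterial homolog lies close to the peptidyl transferase centre. It had 6.17, 6.10 and 5.27 CPM in LX-2Vector and 4.21, 5.00 and 4.87 CPM in LX-2FAP, with no overlap. The log2 fold change was -0.32 ± 0.12 and the adjusted p missed the threshold (edgeR adjusted p = 0.132). MRPL2 shares 14.7% of its exon bases with KLC4 on the opposite strand. MRPL38, at 4.01, 3.93 and 4.04 CPM in LX-2Vector and 3.30, 3.67 and 3.72 CPM in LX-2FAP, had a log2 difference of -0.17 ± 0.13 (edgeR adjusted p = 0.482). MRPS25 (-0.12), MRPL34 (-0.08) and MRPL17 (-0.03) had overlapping groups. The genes with the highest levels lay in between. MRPL51 had a log2 fold change of 0.13, MRPL18 of 0.15, MRPS10 of 0.14 and MRPS34 of 0.02, and none passed the test. Among the lowest, MRPL46 had 0.06 ± 0.12 and MRPS24 0.11 ± 0.23.

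Grouped by role, the genes gave similar medians. Beside the counts of called genes below, all of them higher, 2.57% of all tested genes were called higher. Among those with a mean of at least 100 counts the share was 4.02%. Of 49 tested large subunit genes 5 were called, 43 had a log2 fold change above 0 and the median was 0.10. Of 26 tested small subunit genes 1 was called, 22 were above 0 and the median was 0.09. Proteins with a bacterial homolog (47 tested, 4 called) and mitochondrion-specific proteins (28 tested, 2 called) had medians of 0.10 each. Within the large subunit, the stalk (4 tested, median 0.13), the central protuberance (9 tested, median 0.10) and the rim of the polypeptide exit (7 tested, median 0.11) had no called gene by edgeR or DESeq2's Wald test, with 0, 2 and 1 at an unadjusted p under 0.05. Differences between these groups were not tested. Genes sharing at least 10% of exon bases with another gene had none of 25 called by either tool, 4 at an unadjusted p under 0.05, and a median of 0.08. The other 51 held all 6 calls and had a median of 0.10. Over all tested genes, 4054 of 18275 had an unadjusted p under 0.05 in either direction. Genes with the ETS motif had a median log2 fold change of 0.10 (28 tested, 1 called) and those without it of 0.08. With the YY1 motif the median was 0.11 (20 tested, 2 called) and without it 0.09.

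The difference between the groups was not even across libraries. For each gene the log2 CPM was set against its own mean over the 6 libraries. The median of the 76 genes was -0.02, -0.03 and -0.10 in LX-2Vector replicates 1 to 3 and 0.02, 0.07 and 0.06 in LX-2FAP, while the median of all tested genes stayed within 0.014 of 0 in each library. Genes above their own mean numbered 34, 22 and 10 in LX-2Vector and 48, 60 and 62 in LX-2FAP. LX-2Vector replicate 3 was thus the lowest library and LX-2FAP replicate 1 the closest to the controls. Summed over the 76 genes, the level was 3124, 3095 and 2994 CPM in LX-2Vector and 3226, 3349 and 3297 CPM in LX-2FAP, a mean of 3071 ± 68.4 against 3291 ± 61.5 CPM (SD, n = 3), or 7.16% more. The sum was 7.79% more for the large and 5.83% more for the small subunit. Summed FPKM over all 78 genes, which the authors scaled by library size alone, was 5.30% more. These sums describe the libraries and were not tested.

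**Figure D4:**
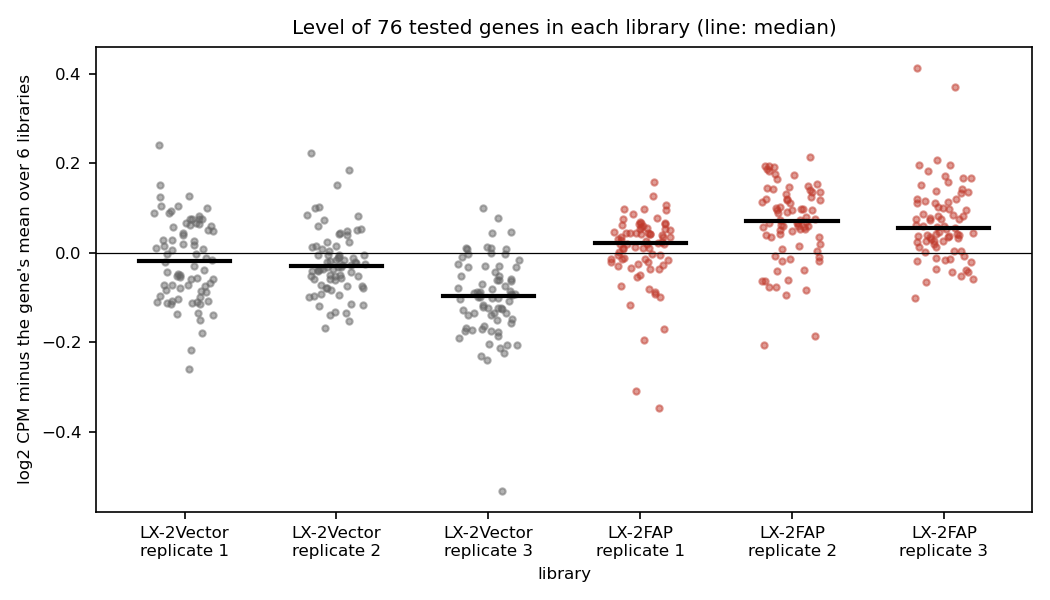
Log2 CPM of each of the 76 tested genes minus the gene's own mean, by library; black lines mark the medians. The medians of the 3 LX-2Vector libraries lie below 0 and those of the 3 LX-2FAP libraries above it, with LX-2Vector replicate 3 lowest at -0.10 and LX-2FAP replicate 1 near 0 at 0.02.

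The number of calls changed with single libraries. Without LX-2FAP replicate 2 or LX-2FAP replicate 3 none of the genes was called by edgeR, with 18 and 17 at an unadjusted p under 0.05, while calls over all tested genes fell to 129 and 26. Without LX-2Vector replicate 3 only MRPL50 and MRPS35 were called, with 395 calls over all tested genes. Without LX-2FAP replicate 1 the count was 11, and calls over all tested genes numbered 1949 against 967 with every library. Leaving out LX-2Vector replicate 1 gave 4 calls of 391 over all tested genes, and leaving out LX-2Vector replicate 2 gave 7 of 662. In the same 6 fits with 1 library left out, the median of the group ran from 0.09 to 0.11 and 61 to 68 genes were above 0. MRPL50 and MRPS35 were called in 4 of the 6 fits, MRPL3 in 3, MRPL15 and MRPL32 in 2 and MRPL13 in 1.

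GC content moved with the fold change. Over the 76 genes the log2 fold change fell with the GC content of the longest transcript (Pearson's r = -0.40, Spearman's rho = -0.45 across genes, all from the same 6 libraries), and it did so over 17929 tested genes too (r = -0.29, rho = -0.36). The called genes had 33.5% to 46.5% GC, below the median of 47.5% of the 76. The 38 genes below that median had a median log2 fold change of 0.11, with 36 above 0 and all 6 calls, and the other 38 had 0.06, with 30 above 0 and no call. Removing the trend in each library before the edgeR test left r at -0.01 over all genes and turned it to 0.31 over the mitoribosomal genes, whose medians were then 0.08 in the low and 0.14 in the high GC group. The called genes became MRPL15, MRPL20 and MRPL21, with MRPL15 the one shared with the calls above. Adjusted p-values of the other 5 were then 0.0504 for MRPS35, 0.0576 for MRPL3, 0.0877 for MRPL50, 0.114 for MRPL32 and 0.342 for MRPL13. The median of the group was 0.10 in both fits, and 68 genes were above 0 after removal of the trend, against 50.2% of all tested genes.

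**Figure D5:**
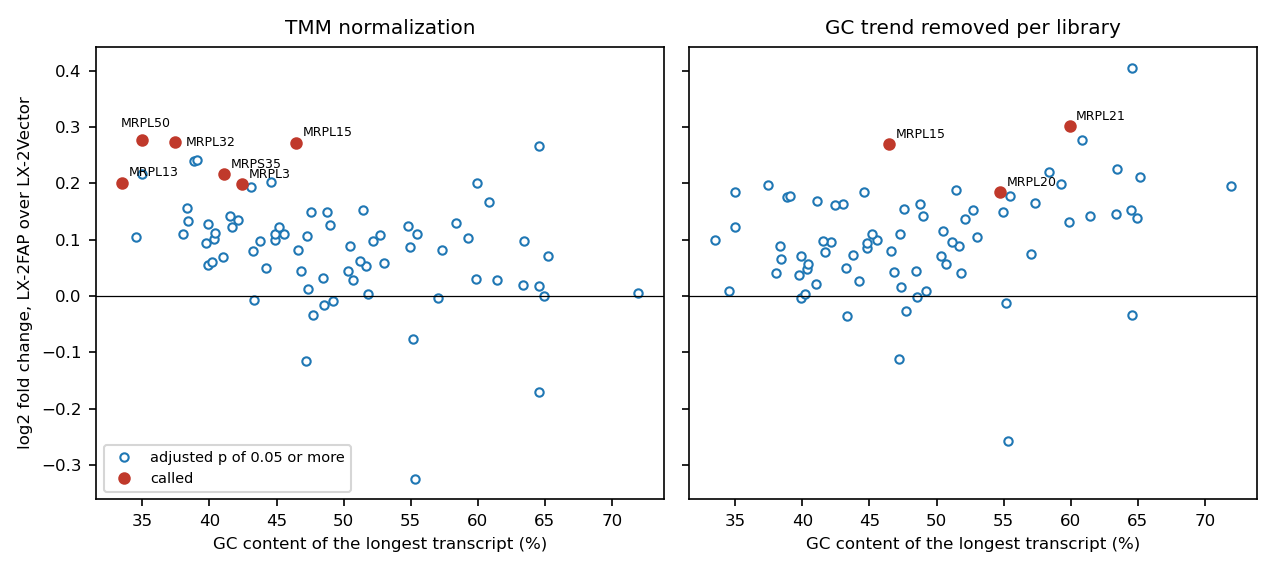
Log2 fold change of the 76 tested genes against GC content of the longest transcript (%), before (left) and after (right) removal of the GC trend in each library; filled points passed an adjusted p of 0.05. On the left the 6 called genes lie at 33.5% to 46.5% GC; on the right MRPL15, MRPL20 and MRPL21 are called and the slope is no longer negative.

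Of the partners of these genes in mitochondrial translation, 1 passed the test. GFM1, the mitochondrial elongation factor that moves the ribosome along the mRNA, had 59.7, 60.3 and 58.3 CPM in LX-2Vector and 66.1, 67.3 and 72.9 CPM in LX-2FAP, and it rose by 0.21 ± 0.05 on the log2 scale (edgeR adjusted p = 0.0284). It was called in 8 of 17 alternative fits, which did not include the fit with the GC trend removed (edgeR adjusted p = 0.0687). The other 15 tested translation factors did not pass, and 13 of the 16 were above 0 with a median of 0.07. A further 5 proteins of the mitoribosome bear other names. DAP3, a GTP-binding protein of the small subunit, had 124.8, 127.5 and 118.5 CPM against 127.3, 148.6 and 143.3 CPM (0.18 ± 0.05, edgeR adjusted p = 0.0687). GADD45GIP1 had a log2 fold change of 0.20 ± 0.09, CHCHD1 of 0.09, AURKAIP1 of 0.08 and PTCD3 of 0.07. All 5 were above 0, and none passed in the edgeR fit behind the calls above. In that fit 2 (DAP3 and GADD45GIP1) had an unadjusted p under 0.05. DESeq2's Wald test called DAP3, and edgeR with the GC trend removed called AURKAIP1.

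Lists of genes further from the ribosome held no called gene in the edgeR fit behind the calls above. Mitochondrial aminoacyl-tRNA synthetases had 19 of 22 genes above 0 and a median of 0.08. Genes of mitochondrial DNA transcription and RNA processing had 12 of 14 above 0 and a median of 0.11. Factors that assemble the mitoribosome had 18 of 26 above 0 and a median of 0.05. None was called in that edgeR fit, by DESeq2's Wald test or by limma. Calls over all lists together in the other fits are given below. In these lists 6, 6 and 4 genes had an unadjusted p under 0.05, all higher, against 10.5% of all tested genes higher. With the GC trend removed, edgeR called C1QBP of the assembly list higher.

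Transcripts of the mitochondrial genome were split in sign. Of the 13 mitochondrially encoded mRNAs 5 were above 0, the median was -0.03 and none was called by edgeR. An unadjusted p under 0.05 was found for 4 of them, 3 lower and 1 higher. Of all 18275 tested genes 4054 had one, 2126 lower and 1928 higher. DESeq2's Wald test called MT-ND6, a subunit of complex I, lower, and limma called none. MT-ND6 had 361, 315 and 321 CPM in LX-2Vector and 308, 296 and 287 CPM in LX-2FAP (-0.16 ± 0.05, edgeR adjusted p = 0.0650). The rRNA of the small subunit, MT-RNR1, had 1179, 1207 and 1214 CPM against 1167, 1264 and 1334 CPM (0.06 ± 0.04, edgeR adjusted p = 0.424). That of the large subunit, MT-RNR2, had 4835, 4618 and 4475 CPM against 4385, 4337 and 4521 CPM (-0.07 ± 0.04, edgeR adjusted p = 0.247). The groups overlapped for both rRNAs. Library preparation removed rRNA per the labels, and its effect on these 2 transcripts is not known.

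Transcription factors and coactivators known to act on nuclear genes for mitochondrial proteins were not called. GABPA and GABPB1, the subunits of the factor that binds the ETS core printed above, had log2 fold changes of 0.10 ± 0.05 (edgeR adjusted p = 0.314) and 0.17 ± 0.06 (edgeR adjusted p = 0.125). YY1 had 103.6, 107.5 and 106.7 CPM in LX-2Vector and 103.4, 102.4 and 101.4 CPM in LX-2FAP (-0.05 ± 0.04, edgeR adjusted p = 0.539). NRF1 and MYC each had a log2 fold change of 0.02, PPRC1 of -0.01, ESRRA of -0.09, PPARGC1A of -0.12 and PPARGC1B of -0.26. Of the 9, 4 were above 0, none was called by edgeR, DESeq2's Wald test or limma, and GABPB1 alone had an unadjusted p under 0.05.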

How the data were processed

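RNA from 3 LX-2Vector and 3 LX-2FAP libraries was sequenced. Groups and replicate numbers came from the sample titles. The submitters' processing notes name HISAT2 2.0.5 and featureCounts 1.5.0-p3, and the authors deposited whole-number counts per gene, not normalized, with FPKM values that they computed from counts and gene length. The notes name hg18 as the build, but the deposited Ensembl identifiers belong to a later annotation, so coordinates were taken from GENCODE release 29 (GRCh38) by identifier. Annotation release and use of strand in counting were not given in the sources used here. The labels describe rRNA depletion and the study's methods also a poly(A) step, so the RNA classes kept are not settled. The deposited table also held the authors' comparison columns, which were not used.

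Counts were tested with edgeR 4.0.16 (quasi-likelihood test, TMM normalization, minimum count of 10 and minimum total of 15), which kept 18275 genes. P-values were 2-sided and adjusted over all of these (Benjamini-Hochberg), and genes with an adjusted p under 0.05 are referred to as called. CPM are counts divided by the effective library size after TMM. SEs were derived from the test statistic. The test was checked on simulated counts. DESeq2 1.42.0, limma 3.58.1 on log2(FPKM + 1) and log2(FPKM + 0.1), other scalings and filters, GC and length corrections (loess, span 0.5), a replicate block and leaving out each library were alternatives. Replicate libraries differed by more than sampling noise, and nothing states that they came from separate cultures, so p-values measure the spread between these libraries only.

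The genes and lists were chosen with earlier results of these data known. Genes named are FAP; the called genes; the 5 highest and 5 lowest fold changes among the others; the 5 highest and 5 lowest mean FPKM; the 3 nearest the threshold on each side; and, from 8 lists of mitochondrial genes, called genes, the rRNAs, mitoribosomal proteins without an MRP symbol and the regulators. MT-ND6, MRPL20, MRPL21 and C1QBP were named after their values were seen. MRPL58 was counted once although a list also held it under an older symbol. Promoters came from RefSeq.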

Additional observations from a re-analysis of the deposited data

How the results depend on the processing

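The median log2 fold change of the mitoribosomal genes was 0.06 to 0.11 in all 17 alternative fits and 60 to 70 genes were above 0, and none was called lower. The number called changed. It was 8 with DESeq2 size factors, without a filter, with at least 10 counts in every library and with DESeq2's Wald test, 5 with library size alone, 11 with the length trend removed, 3 with the GC trend removed, 0 with limma at either pseudocount (18 at an unadjusted p under 0.05 each) and 0 to 11 with 1 library left out. Large subunit calls were then 8 (length), 3 (GC), 0 (limma) and 0 to 7 (1 library left out). Small subunit calls were 2 with DESeq2 size factors, no filter, at least 10 counts, length trend removed and DESeq2's Wald test, 0 with the GC trend removed and limma, and 0 to 3 with 1 library left out. A fold change over 1.2 with an adjusted p left 3. Called genes in the lists of mitochondrial genes numbered 3 with library size alone, 7 without a filter, 2 with the GC trend removed, 5 with the length trend removed, 3 with DESeq2's Wald test, 0 with limma and 0 to 9 with 1 library left out. Over all genes the calls (967) became 1053 with DESeq2 size factors, 1021 with DESeq2's Wald test and 1048 with library size alone. They became 1045 of 16547 with at least 10 counts in every library and 1606 of 41175 without a filter. With the length trend removed they numbered 1229 and with the GC trend removed 469. They fell to 2 with limma and ran from 26 to 1949 with 1 library left out. Library size alone split its calls into 239 higher and 809 lower, against 469 and 498.

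The replicate numbers did not pair the libraries (correlations of same-numbered deviations -0.04, 0.04 and -0.01). With the replicate number as a block 6 genes were called, 5 of them shared (MRPS23 in place of MRPL13), with 2 in the small subunit. This fit called 3 genes in the lists and 975 over all genes. The replicate block with the GC trend removed called 2 genes (MRPL15 and MRPL21), both of the large subunit and 0 of the small, and 241 over all genes.

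Among the named genes the sign reversed for 4, none of them called: MRPS34 with library size alone (-0.011) and with limma (-0.0051 and -0.0052 at pseudocounts of 1 and 0.1). With 1 library left out, MRPS34 ran from -0.015 (without LX-2Vector replicate 2) to 0.058, MRPL17 from -0.077 to 0.045 (without LX-2Vector replicate 1), MRPL46 from -0.021 (without LX-2Vector replicate 3) to 0.139 and MRPS24 from -0.104 (without LX-2FAP replicate 3) to 0.304. Of 391 values of named genes under the alternatives, 320 kept their direction and side of the threshold, 20 passed it newly and 44 no longer passed it. The causes were not tested. Low counts limit what can be tested for the lowest genes: MRPL23, with at most 5 counts in a library, was tested only without a filter (adjusted p = 0.155, edgeR). MRPL53, without a read, was tested in no fit.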
